A study of Canis lupus familiaris with 2 samples.

Results

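NPPB, ANKRD1, ABRA and ACTA1 are 4 genes that heart muscle is known to raise when it is stretched or overloaded. They were chosen from values of these same arrays, on which they were already known to be higher in the lenti-miR-206 group, so their direction is a description and not a finding. All probe sets annotated to them were taken, where a probe set is a group of short oligonucleotides that together read 1 transcript. There were 8 such probe sets of 1628 in the table, and 4 such genes of 823 that could be named. One probe set each reads NPPB and ABRA, 2 read ANKRD1, 3 read ACTA1, and 1 is annotated to both ACTA1 and ACTA2.

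The tissue was the left superior fat pads, the fat on the left atrium of the dog heart in which a nerve plexus is embedded. For its microRNA sequencing the study left out fat as far as it could. Whether this was done for these arrays is not stated. The lenti-control group were mongrel dogs whose fat pads were injected, after a left thoracotomy, with a lentivirus carrying a scramble sequence. The lenti-miR-206 group were mongrel dogs injected in the same way with a lentivirus overexpressing miR-206, a microRNA of muscle. The study describes both groups as sampled 2 weeks after infection and without atrial tachypacing (A-TP), whereas the sample labels give the time for the lenti-miR-206 group alone and do not mention A-TP, so the absence of A-TP is an inference. RNA of 3 dogs was mixed in each group and hybridized to 1 canine Affymetrix array, which leaves no replicate, no error and no test, and the spread between dogs is unknown. Dogs of either sex were used, their ages are not stated, and the pieces of tissue hold every cell type at the injection sites. In such bulk tissue, fewer cells of a type and less RNA per cell cannot be told apart.

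The deposited log2 intensities lay between 2.95 and 14.27, and every probe set in the table differed between the arrays by at least 1.0 on the log2 scale, or 2-fold. The table is therefore a selection, and a gene outside it is not analysed here. Of its 1628 probe sets, 75.1% were at least 2-fold higher in the lenti-miR-206 group, which is the background for each count of higher probe sets. The GAPDH and the spike-in control probe sets gave references that point in opposite directions. The 5 GAPDH controls lay between 1.16 and 1.43 with a median of 1.31, as the log2 value of lenti-miR-206 less that of lenti-control, the direction used throughout. The 13 bacterial spike-in controls lay between -1.17 and -1.001 with a median of -1.08. The controls passed the same selection, and neither reference is shown to be an unchanged level.

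These genes act at different points of the response of heart muscle to load. NPPB encodes brain natriuretic peptide, a hormone that stretched heart muscle cells secrete and that acts on vessels and kidney through guanylyl cyclase receptors. ANKRD1 encodes a cardiac ankyrin repeat protein that binds titin in the sarcomere and is also found in the nucleus. ABRA, also called STARS, is an actin-binding protein of striated muscle that promotes the activity of the transcription factor SRF. ACTA1 encodes skeletal alpha-actin, an actin of skeletal muscle and of the fetal heart that is re-expressed in the overloaded adult heart.

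All 8 probe sets were higher in the lenti-miR-206 group, with log2 differences from 1.42 to 2.83, against the 75.1% of all probe sets that were higher. The differences of 7 of the 8 reached 3-fold, which 24.5% of all probe sets did. Since the genes were chosen by their increase on these arrays, nothing is read from these counts. The rule did not use the order of the genes, the likeness of probe sets of the same gene or the place of the genes among other transcripts of heart muscle, but these come from the same arrays and are given as descriptions too.

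**Figure D1:**
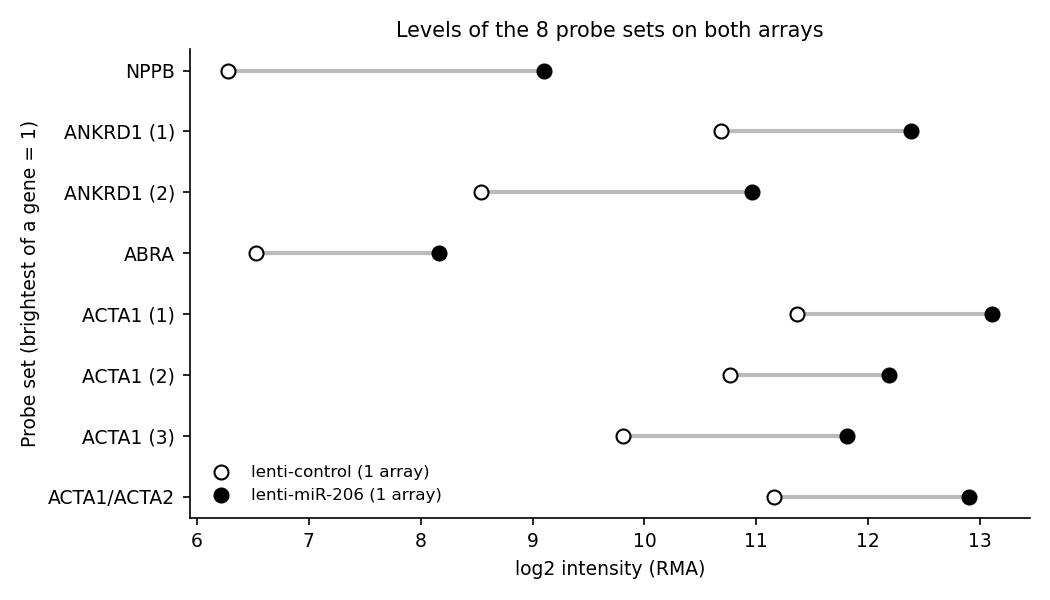
Log2 intensity (x axis, RMA values as deposited) of the 8 probe sets (y axis, numbered within a gene from the brightest) on the lenti-control array (open points) and the lenti-miR-206 array (filled points), each from 1 pool of 3 dogs, with no error bars because there are no replicates. The longest line is that of NPPB, from 6.28 to 9.11, and the shortest that of the second ACTA1 probe set, from 10.76 to 12.18.

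NPPB showed the largest difference of the 4 genes. Its only named probe set in the table read 6.28 on the lenti-control array and 9.11 on the lenti-miR-206 array (log2 intensity). On the linear scale this is 77.5 against 551 intensity units, a log2 difference of 2.83 or 7.10-fold. The lenti-control value was below the median lenti-control value of the table, 6.74, and without detection calls its distance from background is unknown, which makes the size of the fold uncertain. NPPB ranked 9 of the 823 named genes by its log2 difference. Among 320 other genes whose lenti-control value lay within 1 log2 unit of that of NPPB, 265 were higher. The median log2 difference of these 265 was 1.31, and only HSPB7 and MYOZ1 had a larger difference than NPPB. HSPB7 is a small heat shock protein of heart muscle, and MYOZ1 is a calcineurin-binding protein of the Z-disc. Their log2 differences were 2.89 and 2.85.

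ANKRD1 was read by 2 probe sets that differed in the size of the change. The brighter one, Cfa.16041.1.S1_at, read 10.69 on the lenti-control array and 12.39 on the lenti-miR-206 array, a log2 difference of 1.70 or 3.25-fold. The other one, CfaAffx.11735.1.S1_s_at, had 8.53 and 10.96, a log2 difference of 2.42 or 5.37-fold. The gap of 0.72 between their log2 differences means that the fold of 1 probe set was 1.65 times that of the other. The suffix s_at marks probe sets that can hybridize to more than 1 transcript, and the larger change came from that kind. Both probe sets were nevertheless at least 3-fold higher.

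The log2 intensity of ABRA was 6.53 on the lenti-control array and 8.16 on the lenti-miR-206 array. Its log2 difference of 1.63, or 3.10-fold, was the smallest of the 4 genes when each is represented by its brightest probe set. As for NPPB, the lenti-control value was below the median of the table. Of 322 other genes with a lenti-control value within 1 log2 unit, 264 were higher and 64 had a larger difference than ABRA. Since both genes were chosen by their increase on these arrays, nothing is read from these counts for NPPB and ABRA.

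ACTA1 was read by 3 probe sets. Cfa.307.3.S1_at read 11.36 on the lenti-control array and 13.10 on the lenti-miR-206 array, a log2 difference of 1.74 or 3.34-fold. Cfa.15859.1.A1_x_at had 10.76 and 12.18, a log2 difference of 1.42 or 2.68-fold. CfaAffx.18955.1.S1_x_at had 9.81 and 11.81, a log2 difference of 2.001 or 4.003-fold. The suffix x_at marks probe sets with probes that can bind other, similar sequences, and actins are close relatives, so these 2 values may mix actin genes. The smallest and the largest change came from the x_at probe sets, and the probe set without such a suffix lay between them. The probe set shared with ACTA2, the alpha-actin of smooth muscle, had log2 intensities of 11.16 and 12.90 and a log2 difference of 1.74, equal at 2 decimals to that of the first ACTA1 probe set. ACTA2 has no other named probe set in the table and gets no value of its own.

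**Figure D2:**
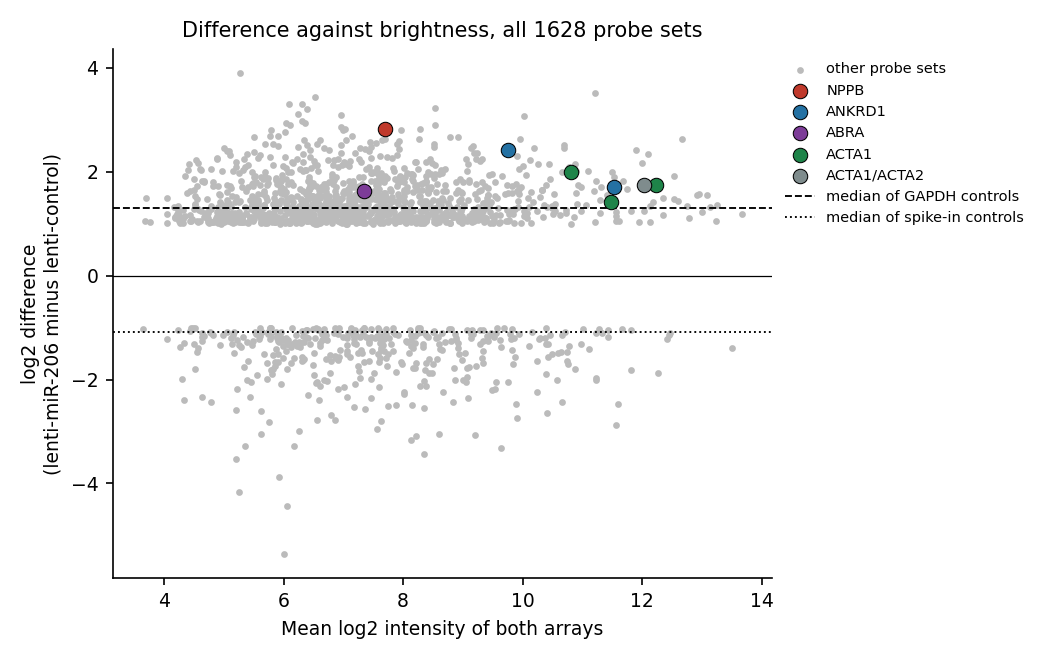
Log2 difference (y axis, lenti-miR-206 minus lenti-control) against the mean log2 intensity of both arrays (x axis) for all 1628 probe sets, with the 8 probe sets of the stretch genes coloured by gene and lines at the medians of the GAPDH and spike-in controls. No point lies between -1 and 1, since smaller differences are outside the table, NPPB lies at 2.83 near the upper edge of the points of its brightness, and ABRA at 1.63 lies within them.

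The order of the genes depends in part on the probe set. With the brightest probe set of each gene it was NPPB (2.83), ACTA1 (1.74), ANKRD1 (1.70) and ABRA (1.63). The last 3 lay within 0.11 of each other, less than the 0.72 and 0.58 by which probe sets of ANKRD1 and ACTA1 differed among themselves, so no order is read among them. The log2 difference of NPPB was above that of each of the other 7 probe sets. Its gap to the nearest of them, the s_at probe set of ANKRD1, was 0.40. This too is below 0.72 and 0.58, and NPPB has only 1 named probe set, so its first place is uncertain. With the mean of all probe sets the values were 2.06 for ANKRD1 and 1.72 for ACTA1.

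Genes read by several probe sets give a measure of this spread. Of 269 such genes, 268 had all their probe sets in the same direction, and the range of log2 differences within these genes had a median of 0.30 and reached 2.02. Probe sets below 2-fold are outside the table, so this spread is too narrow. The range of ANKRD1, 0.72, was exceeded by 48 of the 269 genes, and that of ACTA1, 0.58, by 66. Among the 14 genes of heart muscle structure with several probe sets, the median range was 0.53, and 5 had a larger range than ANKRD1. The brightest probe set had the smallest difference in 142 of the 269 genes, as it had in ANKRD1 but not in ACTA1.

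**Figure D3:**
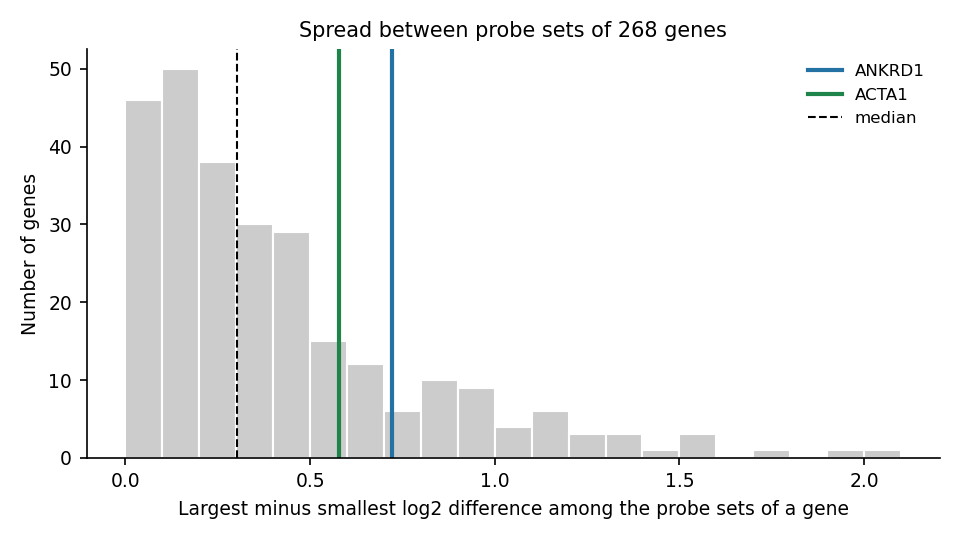
Number of genes (y axis) by the largest minus the smallest log2 difference among the probe sets of a gene (x axis, bins of 0.1) for the 268 genes with several probe sets in the same direction. The dashed line is the median, 0.30, and the coloured lines are ACTA1 at 0.58 and ANKRD1 at 0.72, both in the upper part of the distribution.

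Against the control references the sizes changed but not the direction. The spike-in median was below 0, so taking it off could only raise the 8 values. Since the genes were chosen by their increase, nothing is read from the kept direction with either reference. Relative to the median of the GAPDH controls, all 8 probe sets remained higher, as did 41.3% of all probe sets. The log2 differences were then 1.52 for NPPB, 0.39 and 1.12 for ANKRD1, 0.33 for ABRA and 0.43, 0.12 and 0.69 for ACTA1, and 0.43 for the probe set shared with ACTA2. NPPB was thus 2.87-fold higher than the GAPDH reference, and the s_at probe set of ANKRD1 was 2.17-fold higher. These 2 of the 8 kept a difference of at least 2-fold, as did 4.85% of all probe sets. The lowest ACTA1 value, 0.12, was smaller than the 0.27 between the lowest and the highest GAPDH control. Relative to the median of the spike-in controls the 8 lay 2.50 to 3.91 higher in log2, and 78.4% of all probe sets lay higher. NPPB was 14.98-fold and ABRA 6.54-fold higher on this reference.

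**Figure D4:**
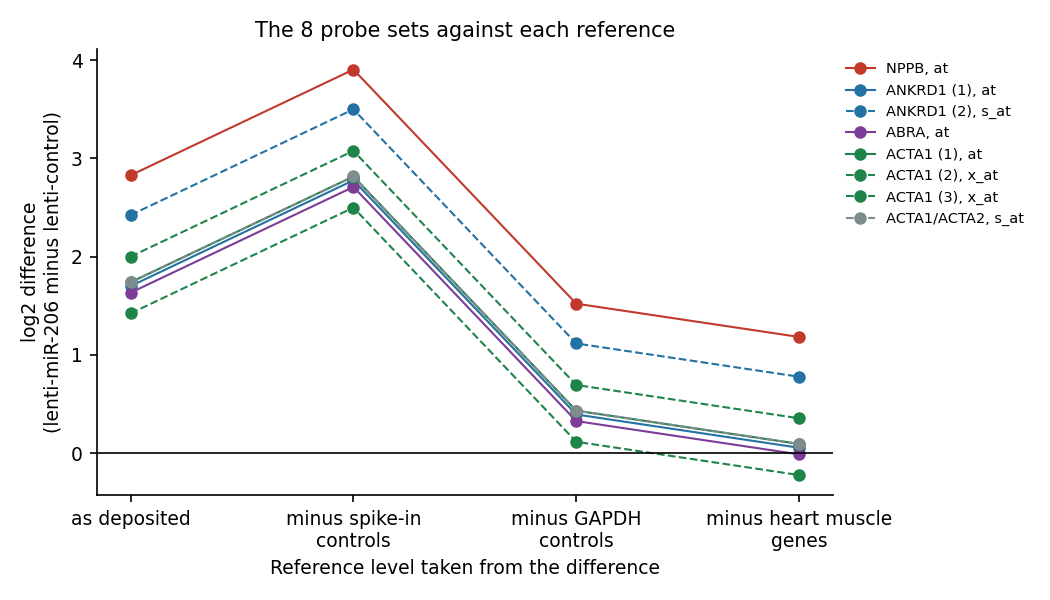
Log2 difference (y axis) of the 8 probe sets as deposited and after the median of the spike-in controls, of the GAPDH controls or of the 23 heart muscle genes was taken from it (x axis), with dashed lines for s_at and x_at probe sets. Each reference shifts all lines alike, so the order never changes. All 8 lie above 0 with both control references, of which the spike-in one could only raise them. ABRA and the lowest ACTA1 probe set lie below 0 relative to heart muscle genes.

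The question of whether these genes moved beyond heart muscle as a whole was met by setting them beside a list of 30 genes of cardiomyocyte structure and contraction, which holds none of them. The table holds 23 of the 30, each of them higher, against 74.2% of the 823 named genes. Their median log2 difference was 1.65, against 1.17 over all named genes. HRC, a calcium-binding protein of the sarcoplasmic reticulum, was highest with 2.57, followed by MYOZ2 (2.46), CKMT2 (2.30) and TCAP (2.11). The lowest were MYH7, the slow myosin heavy chain, with 1.17, the atrial light chain MYL7 with 1.18, TNNI3 with 1.34 and MYL4 with 1.35. The second probe set of MYH7 gave 1.81. Relative to GAPDH, 21 of the 23 were higher, against 36.8% of all named genes.

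NPPB lay above every one of these 23 genes, and above all 47 of their named probe sets, whose highest log2 difference was 2.57. That value came from HRC, which was dim like NPPB, with 6.16 on the lenti-control array against 6.28. The gap between them was smaller than 0.53, the median range between probe sets of a heart muscle gene. It was also below the 1.32 between the 2 probe sets of HRC itself. With their brightest probe sets MYH7 and MYL7 were the lowest of the list and bright on the lenti-control array, with 11.76 and 13.09. Whether brightness plays a part in the place of NPPB was not tested. Probe sets without a symbol were left out of the 47. One of them, Cfa.289.1.S1_at, shares the stem of its name with the probe set of MYOZ2 and had a log2 difference of 3.07, above that of NPPB. The log2 difference of NPPB exceeded the median of the list by 1.18, or 2.27-fold. The muscle genes SMYD1, HSPB7 and MYOZ1, which are not on the list and were named after their values were seen, were nevertheless above NPPB, with 2.93, 2.89 and 2.85. ANKRD1, ABRA and ACTA1 lay within the list instead. Their brightest probe sets had 10, 12 and 8 of the 23 genes above them, and they differed from the list median by 0.06, -0.01 and 0.09. Listed genes below 2-fold are outside the table, so this median may be too high. The sign of the small value of ABRA is therefore not read. The s_at probe set of ANKRD1 was 0.78 above the median with 2 genes above it, and the x_at probe sets of ACTA1 were 0.36 above and 0.22 below it. Whether the 4 genes moved with the share of heart muscle in the tissue was not tested.

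The values of other cell types moved in the same comparison. Of 25 adipocyte genes, 15 were in the table and 14 of them were lower (median -1.65), whereas UCP1 was higher (2.07). The fat cell genes FABP4 and ADIPOQ, which mark the labelled tissue, had log2 intensities of 14.20 and 13.21 on the lenti-control array and 12.80 and 11.34 on the lenti-miR-206 array. The summed linear intensity of the 15 adipocyte genes was 51405.5 and 15366.7, and that of the 23 heart muscle genes was 55486 and 158356, in the same order. Of 12 fibroblast and matrix genes, 5 were in the table and all 5, FN1, FBN1, COL1A1, COL1A2 and COL3A1, were lower (median -1.31). Of 22 neuron and glia genes, 9 of the 10 in the table were lower (median -2.28), whereas MAP1B was higher (1.24). Of 16 smooth muscle and pericyte genes, the table holds 7, with a median of 1.64. All 7, of which DES is also on the list of heart muscle, were higher, against 74.2% of all named genes. Of 10 endothelial genes the table holds MMRN1 (-1.15), and of 11 macrophage genes LYZ (1.13), CYBB (1.06) and SPP1 (-1.02). Relative to GAPDH the higher neuron gene and the 2 higher macrophage genes turn lower, and relative to the spike-in controls 3 of the 15 adipocyte genes and SPP1 are higher. The part of these shifts in the values of NPPB, ANKRD1, ABRA and ACTA1 was not tested.

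Skeletal muscle also expresses ACTA1, ABRA and ANKRD1. Of 23 genes listed as markers of skeletal muscle, only TNNT1, the slow skeletal troponin T, was in the table, with log2 intensities of 5.91 and 8.05 and a log2 difference of 2.13. The other 22 are not analysed here. Of 11 atrial markers, 4 were in the table and all 4 were higher, against 74.2% of all named genes. The 4 were PAM (1.57), an enzyme of atrial granules, the atrial light chains MYL4 (1.35) and MYL7 (1.18), and the atrial connexin GJA5 (1.33). MYL4 and MYL7 are also on the list of heart muscle. Of 9 ventricular markers the table holds FHL2 (1.80), MYH7 (1.17) and CCN1 (-1.23). Each of these had a smaller log2 difference than NPPB with the brightest probe set of each gene.

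**Figure D5:**
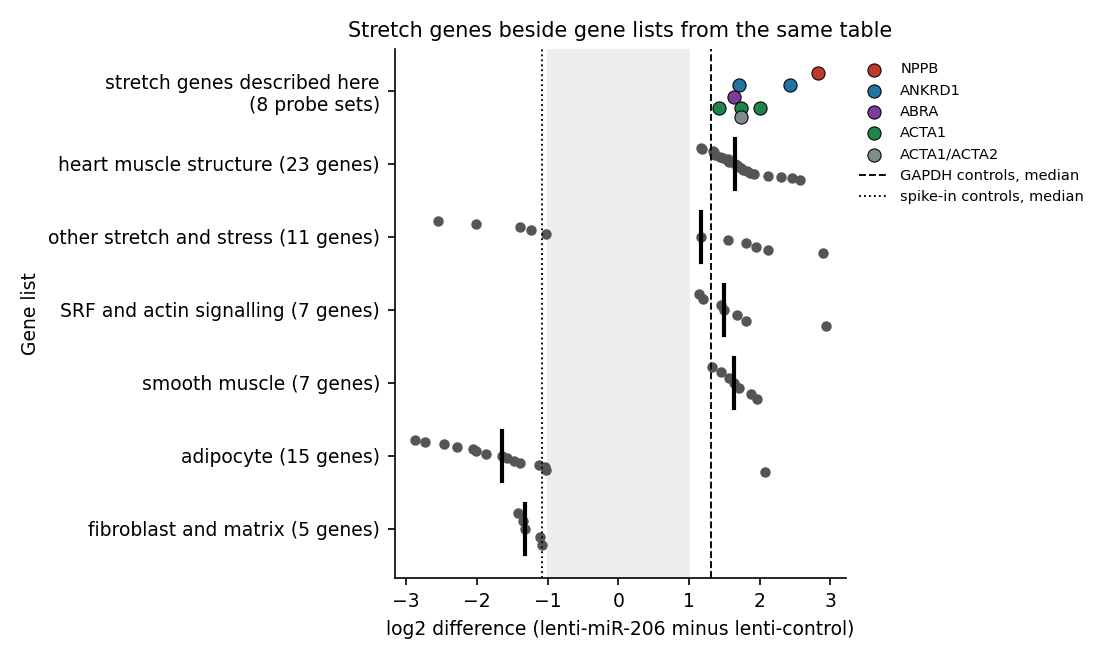
The 8 probe sets of the stretch genes in colour, by log2 difference (x axis, lenti-miR-206 minus lenti-control), and the genes of 6 lists as grey points (y axis, number of genes in the table in brackets), with black bars for list medians, a grey band where the table holds no difference, and lines for both control references. NPPB at 2.83 lies to the right of all 23 heart muscle genes, and the other stretch and stress genes split into 6 to the right and 5 to the left.

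Other genes known from stretch, overload and the fetal programme did not move in 1 direction. Of 30 such genes, with the 4 described above left out, 11 were in the table. Of these, 6 were higher and 5 lower, whereas 74.2% of all named genes were higher. The median log2 difference of the 11 was 1.17. The higher ones that lead the list belong to the sarcomere or act as chaperones there. HSPB7 had log2 intensities of 7.09 and 9.98 and a log2 difference of 2.89, close to that of NPPB. TCAP, the titin cap of the Z-disc, had 2.11, the small heat shock protein CRYAB 1.94, and FHL2, a LIM protein that binds titin, 1.80. MYH7 and CSRP3, a LIM protein of the Z-disc, were higher by 1.17 and 1.55. TCAP, MYH7 and CSRP3 are also on the list of heart muscle. HSPB7, TCAP, CRYAB, FHL2 and CSRP3 remain higher relative to GAPDH. MYH7 turns lower with its brightest probe set, but not with its second one, which gave 1.81.

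The 5 lower genes are transcripts that many cell types induce and that are not specific to heart muscle. Which cells gave these values, and whether that plays a part in the split of the list, was not tested. The immediate early factor FOS had log2 intensities of 9.62 on the lenti-control array and 7.07 on the lenti-miR-206 array, a log2 difference of -2.55 or 5.86-fold lower. THBS1, a matrix protein that mechanical load induces, was 4.03-fold lower, the immediate early factor EGR1 2.61-fold lower, and the matricellular protein CCN1 2.35-fold lower. The second probe set of THBS1 had a log2 difference of -1.12, close to the spike-in median of -1.08. SPP1, or osteopontin, was 2.03-fold lower. FOS, THBS1, EGR1 and CCN1 remain lower with both control references, whereas SPP1 turns higher with the spike-in reference.

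Of 13 further genes of the natriuretic peptide pathway, 2 were in the table and both were higher, against 74.2% of all named genes. CORIN, the protease of heart muscle cells that cleaves pro-natriuretic peptides, had log2 intensities of 6.35 and 7.86, a log2 difference of 1.51 or 2.85-fold. NPR3, the receptor that clears natriuretic peptides, had 4.86 and 6.49, a log2 difference of 1.63 or 3.10-fold, and its second probe set gave 1.22. With that probe set NPR3 turns lower relative to GAPDH, and its lenti-control value is near the low end of the table. The differences of CORIN and NPR3 were 1.32 and 1.20 log2 units below that of NPPB. NPPA, which encodes atrial natriuretic peptide and lies next to NPPB in the dog assembly UU_Cfam_GSD_1.0, and the receptors NPR1 and NPR2 are not analysed here.

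Of 10 partners and relatives of ANKRD1, 3 were in the table and all 3 were higher, against 74.2% of all named genes. MYPN, or myopalladin, which binds ANKRD1 at the I band, had log2 intensities of 7.19 and 8.84 and a log2 difference of 1.64. The intermediate filament protein desmin (DES) had 1.56, and its second probe set 2.37. The 6 probe sets of titin (TTN) ranged from 1.19 to 2.21. DES and TTN are also on the list of heart muscle. The brighter ANKRD1 probe set, with 1.70, lay within 0.34 of the log2 differences of all 3 partners with their brightest probe sets. The next relatives of ANKRD1, ANKRD2 and ANKRD23, are not analysed here.

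Of 24 genes of SRF and actin signalling around ABRA, the table holds 7. All 7 were higher, by a median of 1.49 on the log2 scale. SMYD1, a methyltransferase needed for sarcomere assembly and a target of SRF, had log2 intensities of 4.89 and 7.82 and a log2 difference of 2.93. FHL2 (1.80), the tropomyosin TPM1 (1.67) and the actin nucleator LMOD2 (1.49) followed. TPM1 is also on the list of heart muscle and FHL2 on that of stretch and overload. TAGLN, an actin-binding protein of smooth muscle, had 1.46, ABLIM1, of the family of LIM proteins that bind ABRA, had 1.20, and the filamin FLNC had 1.15. Relative to GAPDH, ABLIM1 and FLNC turn lower. SRF itself, MYOCD and the MRTF genes are not analysed here.

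Of 9 other actin and actinin genes, ACTC1 and ACTN2 were in the table, and both are also on the list of heart muscle. ACTC1, the alpha-actin of the adult heart, had log2 intensities of 12.31 and 13.87, a log2 difference of 1.56, and 2.41 with its second probe set. The ACTA1 probe sets, from 1.42 to 2.001, lay on both sides of the brighter and below the dimmer ACTC1 probe set, and no order of the 2 genes is read from 1 array per group. ACTN2, the alpha-actinin of heart muscle, had 1.70.

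The 3 genes whose pair of log2 intensities lay nearest to those of each gene were named by a fixed rule, with the Euclidean distance over the 2 arrays as the measure. Nearest to NPPB were ANK1 (distance 0.17), GNRH1 (0.28) and HRC (0.40), with log2 differences of 2.61, 2.55 and 2.57. Nearest to ANKRD1 were GOT1, PLN and TPM1, with distances of 0.20, 0.22 and 0.29. Nearest to ABRA were CDK1, UQCC1 and SLC37A1, at 0.051, 0.12 and 0.13. Nearest to ACTA1 were the myoglobin gene MB (0.021), ATP5MC1 (0.24) and MYH7 (0.44). The nearest genes include known transcripts of heart muscle for NPPB (HRC), for ANKRD1 (PLN and TPM1) and for ACTA1 (MB and MYH7). With 2 arrays such a likeness says only that level and difference were close.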

How the data were processed

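The authors deposited log2 intensities of 2 canine Affymetrix arrays, made with RMA per the submitters' processing notes. Its version, and which arrays entered the normalization, are not given in the sources. How RMA affects the size of differences at the dim and the bright end was not tested. No detection calls were used. Differences (lenti-miR-206 minus lenti-control) and folds were computed in Python 3.11.15 (pandas 2.3.3, numpy 2.4.6), with figures from matplotlib 3.10.9. Of the 1628 probe sets and 19 controls, 1184 had 1 symbol in the platform annotation (for 1104 the symbol was taken from UU_Cfam_GSD_1.0 for the same Entrez identifier), 22 had several and 441 none. The probe set with the highest mean represents a gene. No coordinates or sequences are given, since no build is named for the values and no sequence table was used here. With 1 array per group no test was made, and the number of arrays limits the precision.

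The genes, the 15 gene lists, the alternatives and the rule for naming genes were chosen with earlier results of these data known. The rule names all probe sets of the 4 genes, all members of a list with 6 or fewer genes in the table, otherwise up to 4 at each end, and the 3 genes nearest to each gene. HSPB7, MYOZ1 and SMYD1 beside NPPB, and CSRP3, MYH7 and SPP1 among stretch genes, were named after their values were seen. So were FABP4, ADIPOQ, UCP1 and MAP1B. The code that picks probe sets and references was tested on simulated data. Alternatives were the references, other ways to represent a gene, leaving out s_at and x_at or dim probe sets, and a 3-fold threshold.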

Additional observations from a re-analysis of the deposited data

Results flagged for a closer look

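The actin control probe set of the array read 9.55 on the lenti-control array and 10.96 on the lenti-miR-206 array in log2 intensity. Its log2 difference of 1.41 is given because no gene comparison used this probe set and it was higher in the lenti-miR-206 group. The value lay within the range of the 5 GAPDH controls, 1.16 to 1.43, and near the lowest of the ACTA1 probe sets (1.42), and which actin it reads is not given in the table.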

How the results depend on the processing

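The settings were chosen with earlier results known, and a value was taken as moved when it changed by over 1.5-fold. Relative to GAPDH the log2 differences became 1.52 for NPPB, 0.39 for ANKRD1, 0.33 for ABRA, 0.43 for ACTA1 and 0.41 for their median. Relative to the spike-in controls they became 3.91, 2.78, 2.71, 2.82 and 2.80. Relative to heart muscle genes they became 1.18, 0.055, -0.012 (a change of sign for ABRA), 0.094 and 0.075. Nothing is read from that change of sign, since heart muscle genes below 2-fold are outside the table. With its probe set of the largest difference ANKRD1 became 2.42. The mean of all probe sets, the smallest difference, and leaving out s_at, x_at or dim probe sets moved no value of the 4 genes or their median by that much. At 3-fold the counts of higher genes fell from 23 to 12 for heart muscle structure, from 7 to 3 for SRF and actin signalling, from 3 to 1 for ANKRD1 partners, from 2 to 1 for the natriuretic pathway and from 2 to 1 for actins. For stretch genes the count fell from 6 to 4 at 3-fold. Without s_at and x_at probe sets the heart muscle count fell from 23 to 16. The SRF and actin signalling count then became 5 and the stretch count 5. With the same setting the natriuretic and actin counts became 1 and 1 and that of skeletal muscle 0. Without dim probe sets the natriuretic count became 1. These counts fell because fewer genes met the setting. No paired analysis was possible because each group has 1 array.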
